A study of Mus musculus with 12 samples.

Results

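C1galt1, C1galt1c1 and Gcnt1 make the core of mucin-type O-glycans, and they are 3 of the 84 genes on a glycosylation panel read by quantitative PCR in dendritic cells of the mouse. They were taken by gene symbol from the panel, and each was read from its own plate well in every sample. All 3 were detected in every sample. Some samples were DC2.4, a line of immortalized dendritic cells, either treated with TGF-beta for 4 days or unstimulated. Its protocols disagree on the dose, with 2.5 ng/ml in the collection step and 10 ng/ml in the treatment step. The other samples were type 1 dendritic cells (DC1), known for cross-presenting antigen to CD8 T cells, sorted from subcutaneous MCA101 fibrosarcoma tumors or from spleen. The tumor samples are labelled CD103-positive and the splenic ones XCR-1-positive, and these markers cannot be told apart from the tissue. No genotype, strain or age is stated for the mice in the labels. The labels do not say which mice, or how many, gave each sample.

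Each of the 4 groups had 3 deposited samples, of which only 2 were separate measurements. In 4 files, 1 per group, 338 of 380 wells compared equalled a constant times the mean of the group's other 2 files, and all 12 member wells did so. The values below are therefore those of 8 samples, 2 per group. Where nothing says that samples came from separate cultures or animals, a p-value measures only the spread between them, which may be technical. In the 8 samples, 64 to 76 panel genes had a threshold cycle (Ct) under 35, with a median Ct of 22.8 to 30.8 among those. The panel holds 0 of 15 markers of dendritic cells, macrophages, fibrosarcoma cells and T cells looked for, so the labelled cell types could not be checked.

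O-glycans of the mucin type start when a GALNT enzyme adds N-acetylgalactosamine to serine or threonine, which gives the Tn antigen. C1galt1 (T-synthase) adds galactose to this sugar and makes core 1, the T antigen. The enzyme folds only with the help of C1galt1c1 (Cosmc), a chaperone of the endoplasmic reticulum dedicated to it, and cells that lack Cosmc are left with Tn. Gcnt1 adds a branch of N-acetylglucosamine to core 1 and makes core 2, the base on which leukocytes build longer chains, among them selectin ligands such as those on PSGL-1. St3gal1, a sialyltransferase, can cap core 1 before Gcnt1 acts on it. Enzyme and chaperone messages, and the messages for core 1 and core 2 synthesis, are therefore set against each other below.

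C1galt1 and Gcnt1 were both lower in tumor DC1 than in TGF-beta DC2.4 cells, as given further on, and the start regions of these genes are shown for that reason. Each window runs from 250 bases before the gene's start to 50 after it, from RefSeq on build GRCm38.p6. The table holds 1 window for C1galt1 at chr6:7844974-7845273 on the plus strand. It holds 3 windows for Gcnt1 on the minus strand, at chr19:17339456-17339755, chr19:17356618-17356917 and chr19:17372795-17373094, of which the one richest in CG is printed. Capitals mark CAGAC, the short element to which Smad proteins of the TGF-beta pathway are known to bind, and GGGCGG, the core of the GC box, each searched on both strands as GTCTG and CCGCCC too.
C1galt1: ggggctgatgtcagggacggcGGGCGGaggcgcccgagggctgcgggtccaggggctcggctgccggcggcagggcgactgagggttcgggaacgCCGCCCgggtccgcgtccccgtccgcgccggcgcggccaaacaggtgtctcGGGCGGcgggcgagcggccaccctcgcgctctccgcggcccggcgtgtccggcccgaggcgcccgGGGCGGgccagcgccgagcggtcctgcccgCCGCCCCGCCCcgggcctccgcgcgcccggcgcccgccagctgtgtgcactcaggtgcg
Gcnt1: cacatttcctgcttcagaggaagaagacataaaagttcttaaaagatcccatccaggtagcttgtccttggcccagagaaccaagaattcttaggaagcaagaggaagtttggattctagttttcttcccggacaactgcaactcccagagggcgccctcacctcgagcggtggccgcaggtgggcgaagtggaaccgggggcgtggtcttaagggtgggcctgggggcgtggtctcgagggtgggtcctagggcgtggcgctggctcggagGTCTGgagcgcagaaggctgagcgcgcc
The C1galt1 window held 0 CAGAC and 6 GGGCGG matches, of which a pair of CCGCCC matches overlap each other. The printed Gcnt1 window held 1 CAGAC and 0 GGGCGG matches, and the other Gcnt1 windows held 2 CAGAC matches each and 0 GGGCGG matches. Among all 32851 RefSeq mouse windows of this length, 49.6% held CAGAC and 35.7% held GGGCGG on either strand. The C1galt1 window was 82.7% G or C and had 52 CG pairs, which is as many as or more than in 99.5% of all windows, where the median was 7. The Gcnt1 windows had 3, 16 and 2 CG pairs in the order of their coordinates above. A match describes the letters only, and says nothing of whether a factor binds there.

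A Ct counts the PCR cycles needed to reach a fixed fluorescence, and 1 cycle less stands for about 1 doubling of template. The relative level used here is the mean Ct of the plate's 5 reference wells minus the Ct of the gene, on a log2 scale, so that a higher value means more RNA. Such levels are compared for one gene between samples and not between genes, since primers differ. A ratio of 2 genes is the difference of their Ct within a sample. It needs no reference well, and only its change between groups is read.

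In TGF-beta DC2.4 cells, C1galt1 message averaged 3.68-fold its level in unstimulated DC2.4 cells, while the levels of its chaperone C1galt1c1 and of the branching enzyme Gcnt1 overlapped between these groups. The C1galt1 difference did not pass the threshold after adjustment over the panel. C1galt1 had a Ct of 25.5 and 20.2 in TGF-beta cells, and of 25.9 and 22.1 in unstimulated cells. As relative levels these were -3.39 and -3.23 in TGF-beta cells, against -5.22 and -5.15 in unstimulated cells. Both treated samples stood above both untreated ones, and within each group the samples lay close together although their raw Ct differed by several cycles. The log2 fold change was 1.88 ± 0.40 (SE, n = 2 each; 95% interval 0.74 to 3.02; limma adjusted p = 0.12). By p-value C1galt1 ranked 6 of 69 genes tested, and by size of change 19. Over the 5 reference wells taken singly and the mean of the panel genes, the log2 fold change of C1galt1 ran from 1.08 to 2.39, all positive.

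The chaperone C1galt1c1 had nearly the same mean in both groups. Its relative levels were -6.20 and -5.73 in TGF-beta cells and -6.10 and -5.72 in unstimulated cells, from Ct of 28.3 and 22.7 in TGF-beta cells and 26.7 and 22.7 in unstimulated cells. The groups overlapped. Its log2 fold change was -0.05 ± 0.45 (SE, n = 2 each; 95% interval -1.34 to 1.23; limma adjusted p = 0.95), an interval that still holds a change of more than 1 doubling either way.

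Gcnt1 varied more between samples of a group than between the groups. Its Ct was 26.7 and 20.1 in TGF-beta cells and 25.3 and 19.7 in unstimulated cells. Its relative levels were -4.63 and -3.18 in TGF-beta cells, and -4.64 and -2.78 in unstimulated cells. In each group the higher level belonged to the second sample, whose panel genes came up earlier: the median Ct of detected genes was 27.5 and 22.8 in the first and second TGF-beta sample, and 26.2 and 23.0 in the unstimulated ones. What part this depth had in the Gcnt1 values was not tested. The log2 fold change was -0.20 ± 0.95 (SE, n = 2 each; 95% interval -2.89 to 2.50; limma adjusted p = 0.95).

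Against the panel, 0 of the 3 genes passed the threshold of 0.05 in this comparison, and 0% of the 69 genes tested did, while 11 of the 69 had an unadjusted p under 0.05. Groups did not overlap for 1 of the 3, C1galt1, and for 39.1% of the 69. The median log2 fold change of all tested genes was 0.29. The authors' deposited table gives C1galt1 ratios of 3.57, 2.24 and 3.69 for treated over untreated cells. Its header names beta-actin as the reference, but the Ct files matched its columns otherwise, within 0.01 (or that share, above 1). The first column equalled the first treated over the first untreated sample against the mean of the 5 wells for 65 of 82 genes, and H05 alone matched as many. The second equalled the same samples against well H03 alone for 65 of 82. The third equalled the mean ratio of both same-numbered pairs of samples against the 5 wells for 64 of 82. All 3 genes were among the matches, so these ratios are not measurements beside the ones above. For C1galt1c1 the authors' deposited table gives 0.93, 0.59 and 0.96, and for Gcnt1 it gives 1.01, 0.63 and 0.885.

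**Figure D1:**
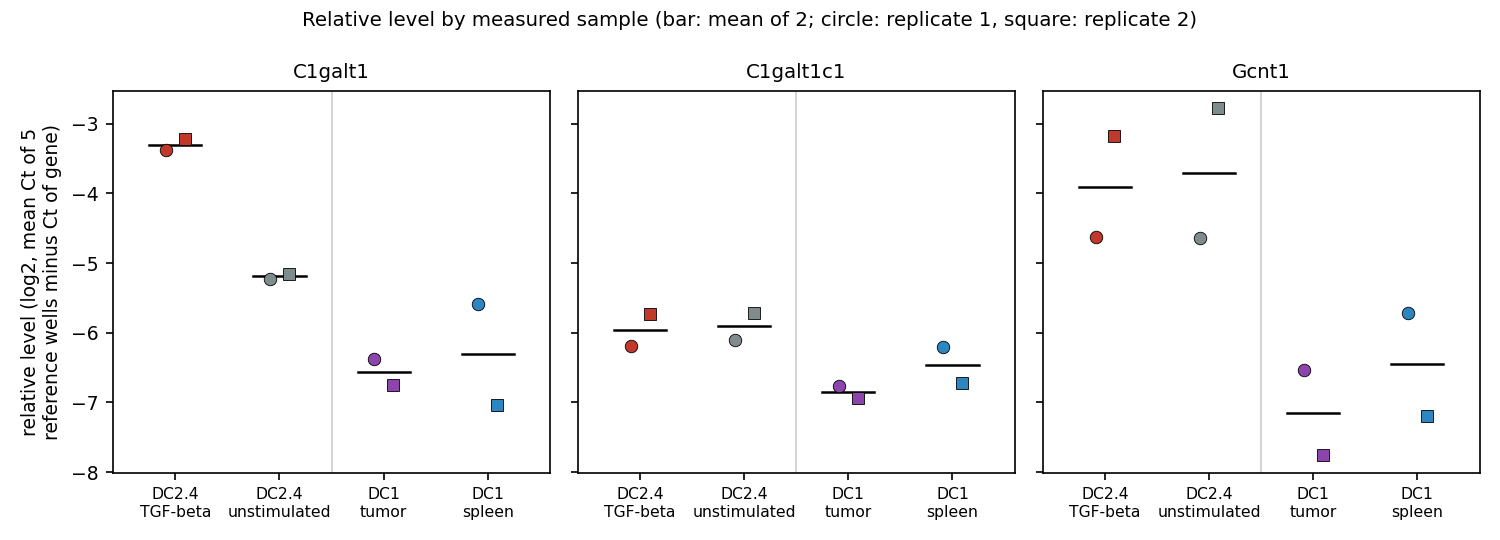
Relative level (log2; mean Ct of 5 reference wells minus Ct of the gene) of C1galt1, C1galt1c1 and Gcnt1 in each of the 8 measured samples, with the mean of each group of 2 as a bar. C1galt1 is highest in both TGF-beta samples, at -3.39 and -3.23, C1galt1c1 spans the narrowest range, and Gcnt1 is lower in all DC1 samples than in all DC2.4 samples.

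The synthase to chaperone ratio was highest in TGF-beta DC2.4 cells. The log2 ratio of C1galt1 over C1galt1c1 was 2.81 and 2.50 in TGF-beta cells and 0.87 and 0.57 in unstimulated cells. It was 0.38 and 0.19 in tumor DC1, and 0.62 and -0.32 in splenic DC1. Both TGF-beta samples thus lay apart from the other 6, which covered a range of little more than 1 doubling. How many of C1galt1's ratios to other panel genes set the TGF-beta samples apart in this way was not counted. Between TGF-beta and unstimulated cells the log2 ratio differed by 1.94 ± 0.48 (SE, n = 2 each; 95% interval 0.61 to 3.27; limma adjusted p = 0.073), or 3.83-fold. This missed the threshold with the spread taken from these 4 samples, and passed it with the spread shared over all 4 groups (limma adjusted p = 0.0158). With the shared spread 42 of all 67 C1galt1 ratios tested passed, so a pass there is common.

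The core 1 to core 2 ratio, C1galt1 over Gcnt1, was lowest in unstimulated DC2.4 cells. On the log2 scale it was 1.24 and -0.05 in TGF-beta cells, against -0.58 and -2.38 in unstimulated cells. It was 0.16 and 1.01 in tumor DC1, against 0.14 and 0.15 in splenic DC1. The splenic samples differed by about 0.01 of a cycle, whereas the DC2.4 samples of one group differed by more than 1 cycle. The TGF-beta difference was 2.08 ± 0.90 (SE, n = 2 each; 95% interval -0.44 to 4.59; limma adjusted p = 0.13). With the spread shared over all 4 groups it passed (limma adjusted p = 0.0472), as did 42 of all 67 C1galt1 ratios tested.

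In the TGF-beta comparison, with the spread of its own 4 samples, 0% of C1galt1's ratios to the 68 other tested genes passed. Of the 2 above, 0 passed, and the median change over all 68 was 1.59. The ratio of C1galt1 to most panel genes was thus higher in TGF-beta cells, and a higher ratio to C1galt1c1 or Gcnt1 is not particular to them. The remaining ratio, Gcnt1 over C1galt1c1, was 1.57 and 2.55 in TGF-beta cells and 1.46 and 2.94 in unstimulated cells on the log2 scale. In tumor DC1 it was 0.22 and -0.82, and in splenic DC1 0.48 and -0.47. All 4 DC1 samples were below all 4 DC2.4 samples in it. Whether ratios of other panel genes to C1galt1c1 separate the samples in this way was not tested.

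Over all 4 groups, the exact permutation test on all assignments of the 8 samples to 4 pairs gave p = 0.0762 for C1galt1 over C1galt1c1 (F = 19.7). It gave an exact p = 0.124 for C1galt1 over Gcnt1 (F = 2.76) and an exact p = 0.0857 for Gcnt1 over C1galt1c1 (F = 5.41). Each became 0.124 after Benjamini-Hochberg adjustment over the 3 exact tests, whose smallest possible p was 0.00952. The highest and lowest group means differed by 2.51, 2.08 and 2.50 on the log2 scale, in the same order.

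**Figure D2:**
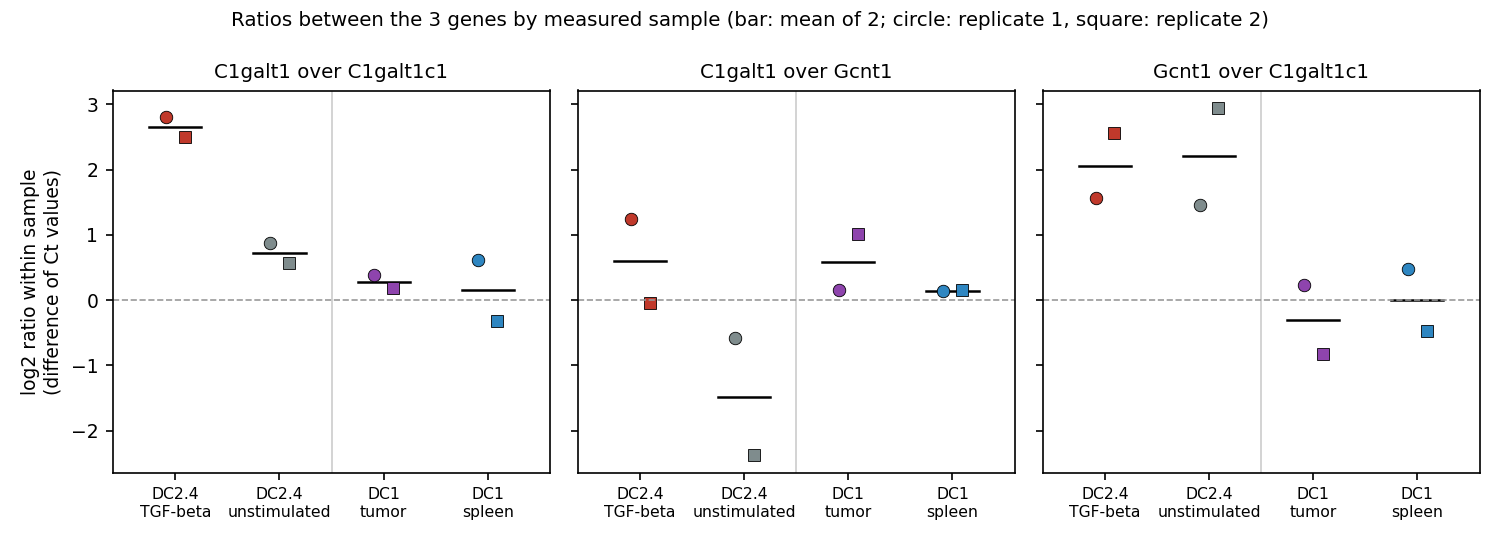
Log2 ratios within each measured sample (difference of 2 Ct) for C1galt1 over C1galt1c1, C1galt1 over Gcnt1 and Gcnt1 over C1galt1c1, with group means as bars. Both TGF-beta samples stand apart for C1galt1 over C1galt1c1 at 2.81 and 2.50, and C1galt1 over Gcnt1 is lowest in the unstimulated samples at -0.58 and -2.38.

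None of the 3 genes passed the threshold between tumor and splenic DC1, and the levels stood within about 1 doubling on average. Across the 62 genes tested, the log2 fold changes from the samples labelled tumor and splenic ran opposite to the authors' deposited table (Spearman correlation -0.961 to -0.967 with its 3 columns, across genes, which are not independent). In the TGF-beta comparison the same correlation was 0.872 to 0.956. The direction of tumor against splenic is therefore not settled. With the labels turned, every tumor over splenic value below changes sign. For other comparisons the turned value is given where a sign or a call changed, and not for every value. The values stand by sample label.

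C1galt1 had a Ct of 30.3 and 29.2 in tumor DC1 and 27.9 and 31.4 in splenic DC1, which gave relative levels of -6.38 and -6.75 in tumor DC1 and -5.58 and -7.04 in splenic DC1. The splenic samples bracketed the tumor ones. The log2 fold change was -0.25 ± 0.73 (SE, n = 2 each; 95% interval -1.98 to 1.47; limma adjusted p = 0.90). C1galt1c1 had relative levels of -6.76 and -6.93 in tumor DC1 and -6.20 and -6.72 in splenic DC1, from Ct of 30.7 and 29.4 in tumor DC1 and 28.5 and 31.0 in splenic DC1. Its groups did not overlap, by 0.04 of a cycle. Its log2 fold change was -0.39 ± 0.62 (SE, n = 2 each; 95% interval -1.86 to 1.09; limma adjusted p = 0.84).

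Gcnt1 relative levels were -6.53 and -7.76 in tumor DC1 and -5.72 and -7.19 in splenic DC1, from Ct of 30.4 and 30.2 in tumor DC1 and 28.0 and 31.5 in splenic DC1. These groups overlapped. The log2 fold change was -0.69 ± 0.79 (SE, n = 2 each; 95% interval -2.57 to 1.19; limma adjusted p = 0.70). Against 0 of the 3 genes, 8.06% of the 62 tested passed the threshold here. Groups did not overlap for 1 of the 3, C1galt1c1, and for 48.4% of the 62. In bulk samples, fewer cells of a type and less RNA per cell cannot be told apart.

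The reference wells moved between the DC1 groups, and within splenic DC1 too. In the first and second splenic sample, H02 stood 0.03 and -2.02 cycles from the mean of the 5 wells. H05 stood -0.59 and 1.01 cycles from it. Well H03 stood 1.84 and 1.67 cycles later than the mean of the 5 wells in tumor DC1, but 0.16 and 0.27 cycles earlier than it in splenic DC1. The files do not name this well, and the manufacturer's usual layout places Gapdh there. Against H03 alone the tumor over splenic log2 fold changes were 1.72 for C1galt1, 1.59 for C1galt1c1 and 1.28 for Gcnt1, so the sign turned for all 3. Against H04 alone they were -1.18, -1.31 and -1.62 in the same order, and all 3 then passed (limma adjusted p = 0.0434, 0.0258 and 0.00552). So did 38 of all 62 genes tested, so a pass against H04 is common. The levels in DC1 are therefore only as certain as the reference chosen, whereas the ratios do not use it.

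In the ratios the DC1 groups were close. C1galt1 over C1galt1c1 differed by 0.13 ± 0.41 between tumor and splenic DC1 on the log2 scale (SE, n = 2 each; 95% interval -0.98 to 1.25; limma adjusted p = 0.84). C1galt1 over Gcnt1 differed by 0.44 ± 0.39 (SE, n = 2 each; 95% interval -0.60 to 1.49; limma adjusted p = 0.45). Of C1galt1's ratios to all 61 other tested genes, 18% passed, against 0 of these 2. For tumor over splenic DC1 the authors' deposited table gives 0.879, 1.02 and 0.912 for C1galt1, 1.01, 1.04 and 0.991 for C1galt1c1, and 1.27, 1.28 and 1.28 for Gcnt1.

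The tumor effect and the TGF-beta effect were then compared in one model of all 8 samples. For C1galt1, the tumor effect minus the TGF-beta effect was -2.13 ± 0.90 on the log2 scale (SE, n = 2 per group; 95% interval -4.12 to -0.15; limma adjusted p = 0.14). For C1galt1c1 it was -0.33 ± 0.81, and for Gcnt1 it was -0.50 ± 1.21 (SE, n = 2 per group; limma adjusted p = 0.84 for both). None of the 3 passed, beside 17.7% of 62 genes tested. With the DC1 labels turned these values were -1.63, 0.44 and 0.89 in the same order (limma adjusted p = 0.71, 0.89 and 0.89), and 0 of the 62 genes passed. The difference of the 2 effects on the ratio of C1galt1 to C1galt1c1 was -1.80 ± 0.65 (SE, n = 2 per group; 95% interval -3.30 to -0.31; limma adjusted p = 0.056), and on the ratio to Gcnt1 it was -1.64 ± 0.99 (95% interval -3.93 to 0.66; limma adjusted p = 0.18). Of C1galt1's ratios to the 61 other genes, 41% passed this test, and 0 of these 2. With the DC1 labels turned the values were -2.07 for C1galt1c1 and -2.52 for Gcnt1 (limma adjusted p = 0.041 and 0.074), both still negative. The first passed, as did 21 of all 61 ratios.

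By the mean of the reference wells, C1galt1 and Gcnt1 messages were lower in the sorted DC1 samples than in DC2.4 cells. Cell source, sort, culture and depth cannot be told apart in this comparison. The median Ct of detected panel genes was 22.8 to 27.5 in the DC2.4 samples and 27.9 to 30.8 in the DC1 samples. Against the mean of the 5 reference wells, all 4 DC1 samples had lower levels of each of the 3 genes than all 4 DC2.4 samples. That order holds whichever way the DC1 labels run, but it did not hold against H03 alone. C1galt1c1 was then higher in tumor DC1 than in TGF-beta cells (log2 fold change 1.90). The ranges that follow use the mean of the 5 wells. C1galt1 ran from -7.04 to -5.58 in DC1 and from -5.22 to -3.23 in DC2.4 cells, as relative log2 levels. Gcnt1 ran from -7.76 to -5.72 in DC1 and from -4.64 to -2.78 in DC2.4 cells. C1galt1c1 ran from -6.93 to -6.20 in DC1 and from -6.20 to -5.72 in DC2.4 cells, so that the ranges all but touched. The panel held 57 genes with a Ct under 35 in all 8 samples that were not left out in processing. Of these, 17.5% were lower in every DC1 sample in this way.

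Tumor DC1 held 9.56-fold less C1galt1 than TGF-beta DC2.4 cells, a log2 fold change of -3.26 ± 0.61 (SE, n = 2 each; 95% interval -4.68 to -1.83; limma adjusted p = 0.0047). They held 9.47-fold less Gcnt1, a log2 fold change of -3.24 ± 0.92 (SE, n = 2 each; 95% interval -5.39 to -1.09; limma adjusted p = 0.035). For C1galt1c1 the log2 fold change was -0.88 ± 0.51 (SE, n = 2 each; 95% interval -2.08 to 0.31; limma adjusted p = 0.24). Thus 2 of the 3 genes passed, both lower, where 26.9% of 67 genes tested passed, 5 higher and 13 lower. Against H03 alone the log2 fold changes were -0.48 for C1galt1 and -0.46 for Gcnt1, and neither passed (adjusted p = 0.58 and 0.64). Without the second tumor sample neither passed (limma adjusted p = 0.053 and 0.23). Over the 22 alternatives run, the call held in 19 for C1galt1 and in 10 for Gcnt1. With the DC1 labels turned, the log2 fold changes were -3.004 for C1galt1 and -2.55 for Gcnt1, and of these 2 only C1galt1 passed (limma adjusted p = 0.0095 and 0.052). Of all 63 genes tested in that setting, 15 passed.

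The ratio of synthase to chaperone was 5.18-fold lower in tumor DC1 than in TGF-beta DC2.4 cells, a log2 difference of -2.37 ± 0.44 (SE, n = 2 each; 95% interval -3.44 to -1.31; limma adjusted p = 0.0029). It passed under each of the 15 alternatives run. The core 1 to core 2 ratio differed by -0.01 ± 0.74 (SE, n = 2 each; 95% interval -1.80 to 1.77; limma adjusted p = 0.99) and the 2 genes had nearly equal log2 fold changes there. Of the ratios of C1galt1 to all 66 other genes, 72.7% passed, so a passing ratio is common there, and 1 of these 2 did.

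Between splenic DC1 and unstimulated DC2.4 cells, none of the 3 genes passed the threshold, and all 3 log2 fold changes were negative, with the DC1 labels turned too. That of Gcnt1 was -2.75 ± 0.90 (SE, n = 2 each; 95% interval -4.83 to -0.67; limma adjusted p = 0.086). C1galt1 had a log2 fold change of -1.12 ± 0.61 (SE, n = 2 each; 95% interval -2.53 to 0.29; limma adjusted p = 0.29). C1galt1c1 had one of -0.55 ± 0.52 (SE, n = 2 each; 95% interval -1.75 to 0.65; limma adjusted p = 0.45). Among the 64 genes tested, 9.38% passed. C1galt1 over C1galt1c1 differed by -0.57 ± 0.44 (SE, n = 2 each; 95% interval -1.62 to 0.48; limma adjusted p = 0.35), and C1galt1 over Gcnt1 by 1.62 ± 0.73 (SE, n = 2 each; 95% interval -0.11 to 3.36; limma adjusted p = 0.10). Of C1galt1's ratios to all 63 other genes, 50.8% passed, beside 0 of these 2.

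In order of group means, C1galt1 was highest in TGF-beta DC2.4 cells at -3.31, then came unstimulated DC2.4 cells at -5.19, and below them tumor DC1 at -6.56 and splenic DC1 at -6.31. The DC1 groups overlapped for C1galt1, and the other neighbours did not. Gcnt1 averaged -3.90 in TGF-beta and -3.71 in unstimulated DC2.4 cells, which overlapped, and -7.15 in tumor and -6.45 in splenic DC1, which overlapped too. C1galt1c1 averaged -5.96 in TGF-beta and -5.91 in unstimulated DC2.4 cells, and -6.85 in tumor and -6.46 in splenic DC1. Its DC2.4 groups overlapped, and splenic DC1 was apart from TGF-beta cells by 0.0013 of a cycle and from tumor DC1 by 0.04.

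The 3 genes thus varied to unlike degrees. The range of the 4 group means was 3.26 for C1galt1, 0.94 for C1galt1c1 and 3.44 for Gcnt1 on the log2 scale. These were ranks 15, 45 and 13 of the same 57 genes, whose median was 1.57. The spread within groups, as a pooled SD, was 0.54 for C1galt1, 0.29 for C1galt1c1 and 1.08 for Gcnt1, against a median of 0.63. Gcnt1 thus ranked 5 of 57 for spread within groups and C1galt1c1 ranked 53.

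Likeness was measured as the SD over the 8 samples of the log2 ratio of 2 genes, a smaller SD meaning a steadier ratio. It uses no reference well and was taken among the same 57 genes. Closest to C1galt1 were Man1a2 (a Golgi mannosidase that trims N-glycans) with an SD of 0.76, Glb1 (lysosomal beta-galactosidase) with 0.76 and Prkcsh (the beta subunit of glucosidase II) with 0.79, beside a median of 1.42 over 56 genes. Closest to C1galt1c1 were Aga (lysosomal aspartylglucosaminidase) with 0.28, Edem3 (a mannosidase of endoplasmic reticulum-associated degradation) with 0.35 and Ganab (the catalytic subunit of glucosidase II) with 0.37, beside a median of 0.85. For Gcnt1 they were Glb1 with 0.88, Man1a2 with 1.19 and B4galt3 (a galactosyltransferase that builds lactosamine) with 1.21, beside a median of 1.87. C1galt1 itself had an SD of 1.11 to Gcnt1. These are descriptions of 8 samples in 4 groups, with each gene read once per sample.

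The steps before and after these 3 enzymes were read from lists chosen with results known. Of 17 GALNT-family initiators on the panel, 11 were tested between TGF-beta and unstimulated cells and 0 passed, with a median log2 fold change of 0.43. Between tumor and splenic DC1, 9 were tested, and 2 passed, both lower: Galnt3 with -3.89 and Galnt6 with -4.49 (limma adjusted p = 0.020 and 0.015), where 8.06% of all 62 genes passed. Their direction and call held in 12 of 19 alternatives for Galnt3 and in 15 of 19 for Galnt6. Between tumor DC1 and TGF-beta cells, 10 were tested and 5 passed, where 26.9% of all 67 genes did. Galnt10 and Galnt12 were higher, at 5.22 and 8.64, and Galnt2, Galnt3 and Galnt6 lower, at -2.15, -8.22 and -7.11 (log2 fold changes; limma adjusted p from 0.00015 to 0.041). The Galnt10 and Galnt12 values include 1 TGF-beta sample with a Ct over 35, set to 35. Both Galnt3 values include 1 tumor sample set to 35 likewise. With late Ct left out, Galnt3 stood at -3.34 for tumor over splenic DC1. Against H03 alone Galnt2 stood at 0.62 between tumor DC1 and TGF-beta cells. With the DC1 labels turned, Galnt2 did not pass (-0.91, limma adjusted p = 0.37). Galnt10, Galnt12, Galnt3 and Galnt6 then still passed, at 3.89, 7.07, -4.33 and -2.62 (limma adjusted p from 0.0027 to 0.014). Between splenic DC1 and unstimulated cells, 10 were tested and Galnt12 was higher, at 6.86 (limma adjusted p = 0.019), with 1 unstimulated sample at a Ct over 35.

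Of the genes that make or extend core 1 and core 2, 6 were on the panel, and 4 were tested: the 3 above and B3gnt3. B3gnt3 extends core 1 with N-acetylglucosamine. Its relative log2 levels were -10.97 and -10.86 in tumor DC1, and -1.36 and -3.48 in TGF-beta cells. The tumor samples had a Ct of 34.9 and 33.3, the first just under the limit of 35. Splenic DC1 held -6.92 and -9.36, and unstimulated cells -6.53 and -6.06. B3gnt3 was lower in tumor DC1 than in TGF-beta cells by a log2 fold change of -8.50 ± 0.97 (SE, n = 2 each; limma adjusted p = 0.00065), so that 3 of these 4 genes passed there, C1galt1 and Gcnt1 among them, where 26.9% of all 67 genes did. The median of the 4 was -3.25, beside -0.75 over all 67 genes. With the DC1 labels turned, B3gnt3 stood at -5.72 in this comparison and still passed (limma adjusted p = 0.0027). In the other pairs of groups 0 of the 4 passed. Gcnt3, another core 2 enzyme, and A4gnt were not tested.

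Of the 3 enzymes on the panel that cap core 1, St3gal1 and St3gal2 were tested. St3gal1 was higher in splenic DC1 than in unstimulated DC2.4 cells, with relative log2 levels of -3.79 and -4.34 in splenic DC1 and -6.98 and -6.30 in unstimulated cells. The log2 fold change was 2.57 ± 0.54 (SE, n = 2 each; limma adjusted p = 0.019), and it did not pass against H01 or H02 alone (1.53 and 2.38; adjusted p = 0.18 and 0.75). Of all 64 genes tested, 9.38% passed there. With the DC1 labels turned the value was 1.43 and did not pass (limma adjusted p = 0.12). In the TGF-beta, tumor over splenic, and tumor DC1 over TGF-beta comparisons, 0 of the 2 caps passed.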

How the data were processed

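RNA was reverse transcribed and amplified with SYBR Green on a 96-well array plate, per the labels' protocols. The deposited sample files list a Ct per well, set per the file headers with a threshold of 0.2 and a baseline of cycles 3 to 15. The deposited series matrix holds log2-scale values, Ct minus the Actb Ct. The authors' deposited table holds ratios of test over control. Wells were named by matching to the matrix within 0.002 cycles, and 2 files were moved by 1 well. Ct over 35 or blank was set to 35. A gene was tested where Ct was under 35 in at least 2 samples of a pair of groups, or 4 of 8 in all-group fits. Genes whose wells broke the relation of the computed file were left out. So were genes in wells G06 to G12 with a whole or repeated Ct in the first splenic sample (in all 11 in DC2.4, 16 in DC1). Wells G09, G11 and G12 of the first splenic sample held Ct of 28.2765, 29.2551 and 35.1502. The second splenic sample holds these same values in wells G08, G10 and G11. None of these is a well of C1galt1, C1galt1c1 or Gcnt1.

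Relative levels went into two-sided limma 3.58.1 fits (R 4.3.3), where p-values were adjusted by Benjamini-Hochberg over all tested genes at a threshold of 0.05. The TGF-beta and tumor comparisons used their own 4 samples, and the others used all 8. Ratios of C1galt1 to each other gene were fitted likewise. The exact permutation tests covered only the 3 ratios among C1galt1, C1galt1c1 and Gcnt1, and were computed with numpy 2.4.6. Only the level fits of the TGF-beta and tumor comparisons were tested on simulated data, with a smaller spread between samples than most panel genes showed. The ratio fits and those of all 8 samples were not simulated. Alternatives changed the reference wells, late Ct, filter, samples, variance model and value source, and, added after seeing the data, the DC1 labels and a replicate block. Members and lists were chosen with earlier results of these data known. Named genes are the 3 members, the 3 likest genes to each, and list genes past the threshold; Gcnt3, A4gnt and St3gal2 were added to account for the lists. Replicate numbers follow accession order.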

Additional observations from a re-analysis of the deposited data

Results flagged for a closer look

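The tumor effect (tumor over splenic DC1) and the TGF-beta effect (TGF-beta over unstimulated DC2.4) differed for 3 of 10 initiators, 1 of 4 core genes and 0 of 2 caps tested, by a contrast in one model of the 8 measured samples in which 17.7% of 62 genes passed. None of them is C1galt1, C1galt1c1 or Gcnt1. For B3gnt3, which extends core 1, the difference was -6.66 ± 1.26 (log2, SE; limma adjusted p = 0.0023). Its Ct was 34.9 in the first tumor sample, just under the limit of 35. For the initiator Galnt3 it was -7.28 and for Galnt6 -7.24 (log2; limma adjusted p = 0.00045 and 0.00036). The Galnt3 relative levels were -11.10 and -10.02 in tumor DC1, with the first at a Ct over 35, and -5.96 and -7.39 in splenic DC1, and they were -2.33 and -2.35 in TGF-beta cells and -6.14 and -5.33 in unstimulated cells. For Galnt9 the contrast was -4.86 (log2; limma adjusted p = 0.014). Both of its tumor samples and 1 splenic sample had a Ct over 35, set to 35, so that it was not tested between tumor and splenic DC1. Its tumor effect rests on that setting, and with the series matrix values the contrast was 11.2. None of these calls held with the DC1 labels turned, whose direction is not settled. B3gnt3 then stood at -1.10, Galnt3 at 0.49, Galnt6 at 1.74 and Galnt9 at -1.89 (log2; limma adjusted p from 0.71 to 0.89).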

How the results depend on the processing

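With n = 2 per group, precision is limited by the number of samples, and late Ct give bounds. The number of the 3 genes past the threshold is given with that over all genes tested in parentheses. Between TGF-beta and unstimulated cells it became 1 with all deposited files (13 of 69) or a trended robust prior (7 of 69). For tumor over splenic DC1 it became 3 with H04 alone (38 of 62). For the difference of effects it became 1 with H04 alone (19 of 62), H05 alone (13 of 62) and all deposited files (19 of 62). For splenic DC1 over unstimulated cells it became 1 with H01 alone (5 of 64), the panel mean (11 of 64) and the robust prior (8 of 64). With all deposited files it became 3 (30 of 65). For tumor DC1 over TGF-beta cells, 2 became 1 with H03 alone (31 of 67), H05 alone (23 of 67) or the panel mean (24 of 67). It also became 1 with no filter (15 of 74) or the left-out genes kept (15 of 71), and 0 with the series matrix (2 of 67). In each of the last 3 comparisons the count also moved on leaving out 1 sample. The ratio counts for TGF-beta became 2 with all deposited files (51 of 68 ratios) and 1 with the robust prior (19 of 68). With the shared spread they became 2 (42 of 67). For the difference of effects they became 2 with all deposited files (52 of 61) and 1 with the robust prior (28 of 61). For splenic DC1 over unstimulated cells they became 1 with all deposited files (41 of 64) and 1 with the robust prior (33 of 63). Leaving out 1 sample moved the counts of the last 2 comparisons as well. With all deposited files, which count the computed ones as samples, the group ranges of C1galt1 over C1galt1c1, C1galt1 over Gcnt1 and Gcnt1 over C1galt1c1 were 2.44, 2.02 and 2.44 (exact permutation, adjusted p = 0.0072, 0.0081 and 0.0072). Leaving out 1 sample, the range for C1galt1 over C1galt1c1 ran from 2.35 to 2.97.

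Signs turned as follows, as log2 values. Between TGF-beta and unstimulated cells, H02 alone gave 0.45 for C1galt1c1 and 0.31 for Gcnt1, and leaving out 1 sample gave -0.29 to 0.18 and -1.13 to 0.74. For tumor over splenic DC1, H03 alone gave 1.72, 1.59 and 1.28 for C1galt1, C1galt1c1 and Gcnt1, the panel mean 0.32 and 0.19 for C1galt1 and C1galt1c1, and the series matrix 1.01 for C1galt1c1. Leaving out 1 sample gave -0.98 to 0.48 for C1galt1, -1.43 to 0.043 for Gcnt1 and -0.33 to 0.60 for C1galt1 over C1galt1c1. For the difference of effects, H03 alone gave 0.12, 1.92 and 1.76 in the same gene order, the panel mean 0.82 for C1galt1c1 and 0.65 for Gcnt1, the series matrix 1.19 for C1galt1c1 and 11.2 for Galnt9, and leaving out 1 sample -1.43 to 0.44 for Gcnt1. For tumor DC1 over TGF-beta cells, H03 alone gave 1.90 for C1galt1c1 and 0.62 for Galnt2, and the panel mean 0.015 for C1galt1c1. C1galt1 over Gcnt1 gave 0.0052 with all deposited files and -0.66 to 0.63 leaving out 1 sample. The cause of these turns was not tested. C1galt1 stayed positive between TGF-beta and unstimulated cells in 19 of 19 alternatives, and its ratio to C1galt1c1 in 12 of 12. The DC1 labels turned was a setting chosen after seeing the data. With it the count became 1 of the 3 genes for tumor DC1 over TGF-beta cells (15 of 63 genes tested). For the ratios in the difference of effects it became 1 (21 of 61 ratios). Tumor over splenic values then were 0.25, 0.39 and 0.69 for the 3 genes, 3.89 for Galnt3, 4.49 for Galnt6, and -0.13 and -0.44 for the ratios to C1galt1c1 and Gcnt1. The difference of effects was 0.44 for C1galt1c1, 0.89 for Gcnt1, 0.49 for Galnt3 and 1.74 for Galnt6.

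The replicate numbers follow accession order, and the authors' deposited table sets same-numbered DC2.4 samples against each other. Across 69 genes the deviations of these samples from their group means correlated at 0.64, but 2 pairs are too few to take the numbers as pairs. With the replicate block, also chosen after seeing the data, 0 of the 3 genes passed in the TGF-beta comparison (C1galt1 limma adjusted p = 0.096), and 2 ratios passed, C1galt1 over C1galt1c1 and over Gcnt1 (adjusted p = 0.046 for both), with 46 of all 68 ratios.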
